A study of Homo sapiens with 12 samples.

Results

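The EGF family genes described here are 9 genes chosen by name: the ligands HBEGF, EREG, TGFA, AREG, BTC and NRG1, and the receptors EGFR, ERBB2 and ERBB3. They and the gene lists below were chosen with earlier results of these data known, so their shares of calls are descriptions only. The members were 9 of the 24556 gene symbols in the deposited table. Averaged over all 12 values, 7 of the 9 reached 1 FPKM and were tested; AREG and BTC did not. FPKM is the number of fragments scaled to transcript length and to library size, so levels of different genes can be set side by side per length.

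RNA was sequenced from LM2, an established subline of MDA-MB-231 human breast cancer cells that was picked for its spread to the lung. The 4 groups held 3 libraries each: LM2 cells given an shRNA (a short hairpin RNA) against EZH2, LM2 cells given a scramble shRNA, LM2 cells given an siRNA (a small interfering RNA) against ZRANB1, and LM2 cells given a scramble siRNA. The shRNAs were introduced by transduction and the siRNAs by transfection, so EZH2 shRNA and ZRANB1 siRNA each had a control of their own kind. EZH2 carries the enzymatic activity of Polycomb repressive complex 2, which methylates histone H3 at lysine 27, and ZRANB1 removes ubiquitin from proteins as one of the OTU enzymes. The number and sequences of the shRNAs and siRNAs, the time after delivery and any selection of cells are not stated in the labels.

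EGF family ligands are made as membrane proteins that are cut at the cell surface, and the released part binds receptors of the same family. HBEGF, EREG, TGFA, AREG and BTC bind EGFR, and NRG1 binds ERBB3 and ERBB4. A bound receptor pairs with another receptor of the family, often ERBB2, which has no ligand of its own. ERBB3 has little kinase activity and works through its partner. The pairs signal through the RAS-ERK and PI3K-AKT pathways. MDA-MB-231 cells lack amplified ERBB2, are known for EGFR and carry an activated RAS, which lies below the receptors.

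The table held no counts, so the depth of the libraries is unknown. Wherever the 3 values of a group differed, they were sorted as text strings within the row, so that a given column mixed libraries between genes. Values are therefore given from lowest to highest, and none can be traced to its library. Separate cultures per library are not mentioned in the labels. The limma p-values then cover only how far samples within the groups lay apart, a spread that may be technical. That spread was shared over all 4 groups and drawn toward that of other genes of similar level. EZH2 averaged 16.5 ± 0.681 FPKM with EZH2 shRNA and 35.4 ± 1.07 FPKM with scramble shRNA (SD, n = 3 each), a log2 difference of -1.06 (adjusted p = 1.34e-05, limma). ZRANB1 averaged 10.0 ± 1.31 FPKM in the libraries labelled ZRANB1 siRNA and 11.4 ± 0.795 FPKM with scramble siRNA, a log2 difference of -0.17 that did not pass the test (95% interval -0.42 to 0.076, adjusted p = 0.349). A lowering of ZRANB1 RNA was therefore not established. EZH2 itself averaged 30.4 ± 2.09 FPKM in the libraries labelled ZRANB1 siRNA and 48.6 ± 2.097 FPKM with scramble siRNA, a log2 difference of -0.66 (adjusted p = 5.43e-05, limma). Both with EZH2 shRNA and in the libraries labelled ZRANB1 siRNA, EZH2 was thus lower than in the control. Between the controls EZH2 stood at 137.4% in the scramble siRNA group (adjusted p = 2.31e-04). All 5 markers of mesenchymal-like breast cancer cells, which fit the line's origin, were detected, with a summed level of 3387 to 3705 FPKM over the groups, most of it VIM. The summed level of 7 luminal markers was 16.4 FPKM with EZH2 shRNA, 18.3 FPKM with scramble shRNA, 40.9 FPKM in the libraries labelled ZRANB1 siRNA and 59.9 FPKM with scramble siRNA. KRT19, GATA3 and EPCAM carried that sum, KRT19 with 7.07, 7.53, 28.6 and 47.4 FPKM in the same order of groups, while ESR1, PGR and CDH1 were below 0.1 FPKM in every group. The 6 fibroblast markers summed to 19.9, 25.2, 17.8 and 8.83 FPKM in the same order of groups, nearly all of it COL1A1. The 6 blood and endothelial markers summed to 36.1 to 42.4 FPKM, carried by CD68, with PTPRC, CD3E, VWF and CDH5 below 0.1 FPKM. PECAM1 averaged 1.095, 1.574, 0.678 and 0.316 FPKM in the same order of groups. Several of these markers moved with the comparisons, and are given beside them; their part in the results was not tested. In such bulk libraries, fewer cells of a type and less RNA per cell cannot be told apart.

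HBEGF had the highest mean of the 9 genes in 3 of the 4 groups, and EGFR had it in the scramble siRNA group. With EZH2 shRNA the order per length was HBEGF, then EREG, TGFA and EGFR, then ERBB2 and NRG1, then ERBB3, then BTC and AREG. Genes named together within a step of that order had overlapping ranges of their 3 values. With scramble shRNA the order was HBEGF at 54.3 ± 0.792 FPKM, then EREG, TGFA and EGFR, where TGFA overlapped with EREG and with EGFR but EREG and EGFR did not overlap, then NRG1, ERBB2 and ERBB3 in turn, with BTC and AREG last and overlapping. In the libraries labelled ZRANB1 siRNA, HBEGF was followed by EGFR, then EREG, and then by TGFA, NRG1 and ERBB2, whose ranges overlapped, with ERBB3 next and BTC and AREG last and overlapping. In the scramble siRNA group EGFR at 29.3 ± 0.820 FPKM and HBEGF at 28.1 ± 1.13 FPKM overlapped, ahead of NRG1 and ERBB2, which overlapped too, and then EREG, TGFA, ERBB3, BTC and AREG in turn (SD, n = 3 each).

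**Figure D1:**
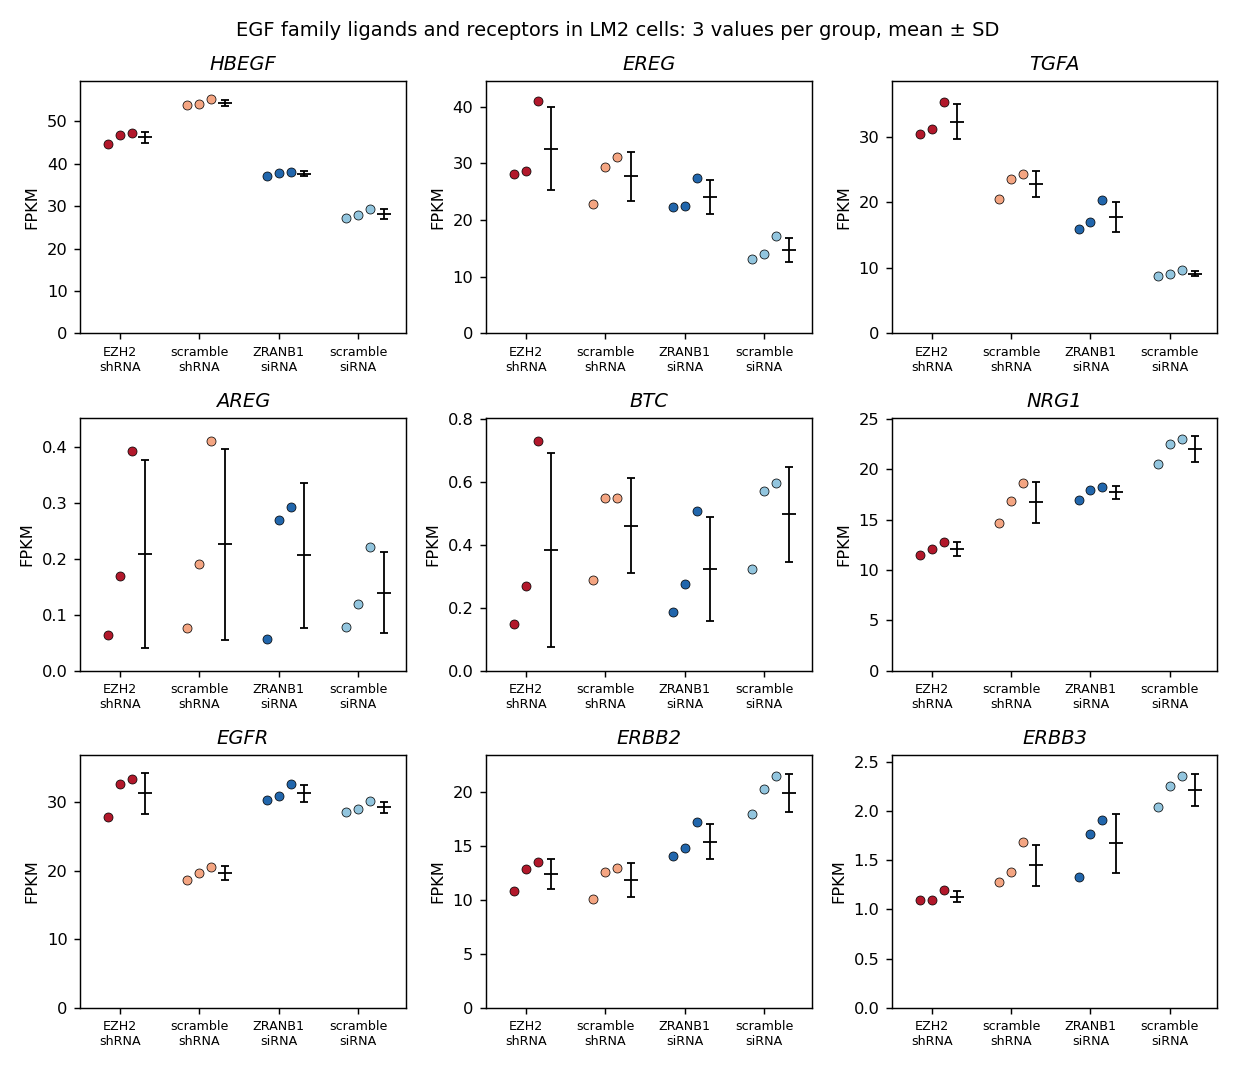
FPKM of each EGF family gene (vertical axis, starting at 0 and scaled per panel) in the 4 groups; points are the 3 values of a group drawn in ascending order, and the black mark beside them is the mean ± SD. HBEGF, EREG and TGFA lie lowest in the scramble siRNA group, NRG1, ERBB2 and ERBB3 lie highest there, EGFR lies lowest with scramble shRNA, and the AREG and BTC values stay below 1 FPKM and overlap.

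With EZH2 shRNA, members of the family differed from the control in both directions. EGFR was 1.6-fold as high in FPKM as with scramble shRNA and TGFA 1.4-fold, while NRG1 and HBEGF fell to 72.3% and 85.0% of the scramble shRNA level. EREG, ERBB2 and ERBB3 did not pass the test. Thus 2 of the 7 tested genes were called higher and 2 lower, at a Benjamini-Hochberg adjusted p below 0.05 by limma on log2(FPKM + 1). Of all 11929 tested genes, 6.41% were called in this comparison, 3.39% higher and 3.03% lower. The median log2 difference of the 7 genes was 0.061, against -0.014 over all tested genes. Among the markers of other cell types, GATA3 fell by 0.40 (adjusted p = 0.0393, limma). Of the 5 mesenchymal-like markers 0 were called, and 1 had an unadjusted p below 0.05, beside 2558 of all 11929 tested genes.

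Among the ligands of EGFR, TGFA, whose product is released from epithelial and tumour cells and acts on the same or nearby cells, had 30.5, 31.2 and 35.3 FPKM with EZH2 shRNA, against 20.6, 23.6 and 24.3 FPKM with scramble shRNA. The groups did not overlap, and the difference was 0.48 on the log2(FPKM + 1) scale (SE 0.10, adjusted p = 0.0162, limma). This call was lost with only the 6 values of both groups (adjusted p = 0.0753, the highest of a range from 0.0114). HBEGF, a heparin-binding ligand that is also the receptor for diphtheria toxin, had 44.7, 46.7 and 47.2 FPKM with EZH2 shRNA, against 53.7, 54.0 and 55.2 FPKM with scramble shRNA. All 3 HBEGF values with EZH2 shRNA lay below the controls, with a log2 difference of -0.23 (SE 0.057, adjusted p = 0.0361, limma). That call was lost when only the 6 values of both groups were fitted (adjusted p = 0.133, within a range of 0.0155 to 0.133 over the alternatives). It held in 11 of 19 alternatives, a number that, here and below, leaves out the requirement of a log2 change of at least 1. Of these alternatives, 12 left out a value, and those that took it from a group outside the comparison left the compared values unchanged. EREG, a ligand of EGFR and ERBB4, had 28.2, 28.6 and 41.0 FPKM with EZH2 shRNA, against 22.8, 29.3 and 31.0 FPKM with scramble shRNA. Its groups overlapped, with 1 high value in the EZH2 shRNA group, and the log2 difference of 0.22 had a 95% interval of -0.14 to 0.57 (adjusted p = 0.492, limma).

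NRG1, the neuregulin ligand of ERBB3, had 11.4, 12.1 and 12.8 FPKM with EZH2 shRNA, against 14.6, 16.9 and 18.6 FPKM with scramble shRNA. It fell by 0.43 on the log2 scale without overlap of the groups (SE 0.088, adjusted p = 0.0153, limma), a call lost with only the 6 values of both groups (adjusted p = 0.127, the highest of a range from 0.00928). AREG, a ligand of EGFR, had 0.0643, 0.169 and 0.393 FPKM with EZH2 shRNA, against 0.0756, 0.190 and 0.411 FPKM with scramble shRNA. BTC, which binds both EGFR and ERBB4, had 0.148, 0.268 and 0.731 FPKM, against 0.288, 0.547 and 0.548 FPKM. Both sets overlapped across most of their range, with exact permutation p = 0.7 for AREG and p = 0.6 for BTC (two-sided, n = 3 each). The AREG level is uncertain, since the hg19 assembly holds a near-identical second copy and the table had 2 rows with this symbol, 1 of them at 0 in all 12 values.

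EGFR showed the clearest difference among the receptors, with 27.9, 32.7 and 33.4 FPKM with EZH2 shRNA, against 18.7, 19.7 and 20.6 FPKM with scramble shRNA. The lowest value with EZH2 shRNA lay above the highest control, and EGFR rose by 0.64 on the log2 scale (SE 0.077, adjusted p = 7.46e-04, limma), a call that held in 19 of 19 alternatives without the size requirement and was lost under it. EGFR-AS1, a transcript from the opposite strand of EGFR, averaged at most 0.323 FPKM in any group; the strand setting of the counting is not stated in the labels. ERBB2, the receptor without a ligand of its own, had 10.8, 12.9 and 13.5 FPKM with EZH2 shRNA, against 10.1, 12.6 and 12.9 FPKM with scramble shRNA. These overlapped, with a log2 difference of 0.06 (95% interval -0.19 to 0.32, adjusted p = 0.827, limma). ERBB3 had 1.10, 1.10 and 1.19 FPKM with EZH2 shRNA, against 1.28, 1.38 and 1.69 FPKM with scramble shRNA. All 3 ERBB3 values lay below the controls, but the log2 difference of -0.20 did not pass the test (95% interval -0.44 to 0.042, adjusted p = 0.333, limma). In all, 2 of the 7 genes had every value above and 3 every value below the scramble shRNA values. Over all tested genes, 22.1% did not overlap between these groups. An exact permutation test of 3 against 3 cannot go below p = 0.1, the value that each gene without overlap reached.

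In the libraries labelled ZRANB1 siRNA, the 3 abundant EGFR ligands were higher than with scramble siRNA. TGFA was at 193.9% of its scramble siRNA level, EREG at 162.8% and HBEGF at 133.8%, whereas NRG1 fell to 80.5%. The receptors EGFR, ERBB2 and ERBB3 did not pass the test. Of the 7 tested genes, 3 were called higher and 1 lower by limma. Over all tested genes, 16.6% were called, 10.1% higher and 6.50% lower. In 7 of the 7 genes the ZRANB1 siRNA mean lay between those of scramble siRNA and EZH2 shRNA, beside 72.3% of all tested genes. In 6 of the 7 it lay between the means of both controls, beside 68.1% of all tested genes. The median log2 difference was 0.093 for the 7 genes and -0.017 for all tested genes. COL1A1 rose in the same comparison by 0.97 on the log2 scale (adjusted p = 4.21e-05, limma) and KRT19 fell by 0.71 (adjusted p = 0.0131). Of the mesenchymal-like markers, CD44 rose by 0.80 (adjusted p = 7.61e-05, limma), while CAV1 (-0.41, adjusted p = 0.0169) and AXL (-0.17, adjusted p = 0.0472) were lower.

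TGFA had 15.9, 16.9 and 20.3 FPKM in the libraries labelled ZRANB1 siRNA, against 8.72, 9.10 and 9.61 FPKM with scramble siRNA. The groups stood well apart, with a log2 difference of 0.88 (SE 0.10, adjusted p = 1.10e-04, limma). EREG had 22.3, 22.4 and 27.4 FPKM in the libraries labelled ZRANB1 siRNA, against 13.2, 13.98 and 17.1 FPKM with scramble siRNA. Its highest control stayed below the lowest of the other group, and the log2 difference was 0.67 (SE 0.16, adjusted p = 0.0158, limma). HBEGF had 37.0, 37.9 and 38.0 FPKM in the libraries labelled ZRANB1 siRNA, against 27.2, 27.8 and 29.4 FPKM with scramble siRNA. The spread was small in both groups, and the log2 difference was 0.41 (SE 0.057, adjusted p = 4.98e-04, limma). The calls of TGFA and HBEGF held in 19 of 19 alternatives without the size requirement, and that of EREG in 16, with adjusted p from 0.00655 to 0.0664; under that requirement all 3 were lost.

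NRG1 had 17.0, 17.9 and 18.2 FPKM in the libraries labelled ZRANB1 siRNA, against 20.5, 22.5 and 23.0 FPKM with scramble siRNA. It fell by 0.30 on the log2 scale without overlap (SE 0.088, adjusted p = 0.0386, limma). This call held in 11 of 19 alternatives, with adjusted p from 0.0215 to 0.124, and was lost with no filter on low values (0.0510) and with 1 scaling factor per group (0.0549). AREG had 0.0572, 0.270 and 0.292 FPKM in the libraries labelled ZRANB1 siRNA, against 0.0787, 0.119 and 0.221 FPKM with scramble siRNA. BTC had 0.186, 0.274 and 0.506 FPKM, against 0.322, 0.572 and 0.596 FPKM. The values of both genes overlapped between the groups, with exact permutation p = 0.5 for AREG and p = 0.2 for BTC (two-sided, n = 3 each).

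For EGFR, the libraries labelled ZRANB1 siRNA gave 30.4, 30.9 and 32.7 FPKM, against 28.6, 29.1 and 30.2 FPKM with scramble siRNA. The values did not overlap, yet the log2 difference of 0.09 was small (95% interval -0.076 to 0.26, adjusted p = 0.467, limma). For ERBB2 they were 14.1, 14.9 and 17.2 FPKM, against 18.0, 20.3 and 21.5 FPKM with scramble siRNA. The ERBB2 mean was at 77.2% of the scramble siRNA mean, and the log2 difference of -0.35 (95% interval -0.61 to -0.098) had an adjusted p of 0.0614 by limma, above the threshold. ERBB3 had 1.33, 1.77 and 1.91 FPKM in the libraries labelled ZRANB1 siRNA, against 2.04, 2.26 and 2.36 FPKM with scramble siRNA. Its values did not overlap either, and its log2 difference was -0.27 (95% interval -0.51 to -0.034, adjusted p = 0.117, limma). All 7 tested genes were without overlap in this comparison, 4 above and 3 below, where 36.4% of all tested genes were.

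**Figure D2:**
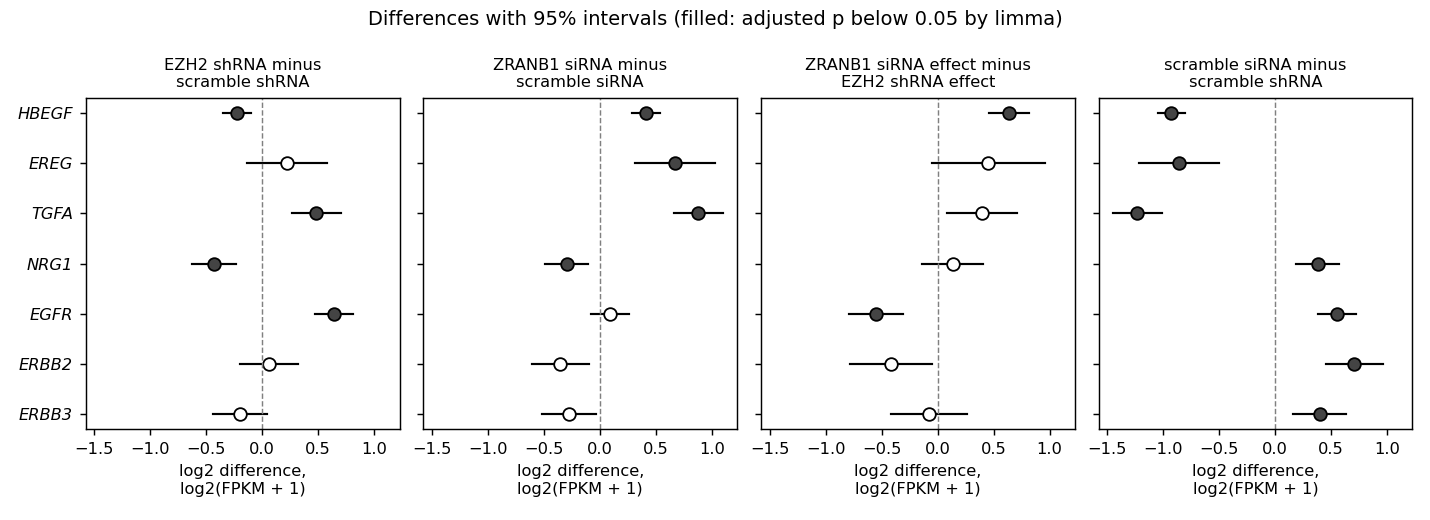
Log2 differences of the 7 tested EGF family genes (horizontal axis, on the log2(FPKM + 1) scale) with 95% intervals, in panels for EZH2 shRNA minus scramble shRNA, ZRANB1 siRNA minus scramble siRNA, the difference of both effects, and scramble siRNA minus scramble shRNA; filled points had an adjusted p below 0.05 by limma. HBEGF lies at -0.23 in the first panel and 0.41 in the second, EGFR at 0.64 and 0.09, and all 7 points are filled in the panel of both controls.

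Whether the effects of ZRANB1 siRNA and EZH2 shRNA differed was tested as the former minus the latter. HBEGF had the larger difference, 0.64 on the log2 scale (95% interval 0.46 to 0.81, adjusted p = 3.68e-04, limma), being higher with ZRANB1 siRNA and lower with EZH2 shRNA than in the control of each. EGFR differed in the other direction, by -0.55 (95% interval -0.79 to -0.31, adjusted p = 0.00766, limma). These were 2 of the 7 tested genes, and 10.5% of all tested genes were called for this difference. Both held in each of 18 alternatives without the size requirement and were lost under it. EREG (0.45, 95% interval -0.052 to 0.96), TGFA (0.40, 0.085 to 0.70), NRG1 (0.13, -0.14 to 0.41), ERBB2 (-0.42, -0.78 to -0.053) and ERBB3 (-0.08, -0.41 to 0.26) did not pass the test, with adjusted p from 0.108 to 0.826. For these 5 genes a difference between the effects was therefore not established, and the intervals leave room for one. TGFA was called higher and NRG1 lower both with EZH2 shRNA and in the libraries labelled ZRANB1 siRNA. The compared groups share no libraries, but both tests used a spread estimated over all 4 groups and are not independent. Both EZH2 shRNA calls were lost with the compared groups alone, and the NRG1 call with ZRANB1 siRNA held in 11 of 19 alternatives.

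The controls themselves differed in every tested member. In the scramble siRNA group, set against the scramble shRNA group, the ligands TGFA, EREG and HBEGF were lower, at 40.0%, 53.3% and 51.8% of the scramble shRNA level. NRG1, EGFR, ERBB2 and ERBB3 were higher there, at 131.6%, 148.9%, 167.9% and 153.1%. This gave 4 genes called higher and 3 lower of 7, and the same 4 above and 3 below without overlap. Against this stands a wide background, since 50.6% of all tested genes were called, 25.5% higher and 25.1% lower, and 59.9% did not overlap. The log2 differences were -1.23 for TGFA (SE 0.10, adjusted p = 1.47e-06, limma), -0.93 for HBEGF (SE 0.057, adjusted p = 1.61e-07) and -0.86 for EREG (SE 0.16, adjusted p = 0.00101). They were 0.71 for ERBB2 (SE 0.12, adjusted p = 3.99e-04, limma), 0.55 for EGFR (SE 0.077, adjusted p = 1.12e-04), 0.40 for ERBB3 (SE 0.11, adjusted p = 0.0101) and 0.38 for NRG1 (SE 0.088, adjusted p = 0.00358). The median over the 7 genes was 0.38, against 0.011 over all tested genes. Of the luminal markers, KRT19 (2.51, adjusted p = 2.90e-07, limma) and EPCAM (1.03, adjusted p = 9.63e-05) were higher and GATA3 lower (-0.72, adjusted p = 1.21e-04) in the scramble siRNA group. COL1A1 (-1.48, adjusted p = 2.88e-07, limma) and CD44 (-1.16, adjusted p = 7.54e-07) were lower there, and CAV1 (0.29, adjusted p = 0.0349), AXL (0.14, adjusted p = 0.0370) and CD68 (0.22, adjusted p = 0.0296) were higher. Delivery by transfection or transduction and any difference in handling or sequencing cannot be told apart here. The scramble siRNA libraries also served as the control for ZRANB1 siRNA, and the scramble shRNA libraries as that for EZH2 shRNA. Neither of those comparisons is independent of the one between the controls.

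The levels of the 5 ligands of EGFR were added up per group, as were those of the 3 receptors. The sum of ligand means was 111.7 FPKM with EZH2 shRNA and 105.5 FPKM with scramble shRNA. It was 79.9 FPKM in the libraries labelled ZRANB1 siRNA and 52.7 FPKM with scramble siRNA. HBEGF made up 41.4% of the sum with EZH2 shRNA and 51.5% with scramble shRNA, and TGFA 29.0% and 21.6%. In the libraries labelled ZRANB1 siRNA HBEGF made up 47.1%, against 53.4% with scramble siRNA, and TGFA 22.2%, against 17.4%. The share of EREG lay between 26.3% and 30.1% in all groups, BTC reached at most 0.943% and AREG at most 0.265%. The receptor sum was 44.9 FPKM with EZH2 shRNA and 33.0 FPKM with scramble shRNA, and it was 48.4 FPKM in the libraries labelled ZRANB1 siRNA and 51.4 FPKM with scramble siRNA. Since values could not be traced to libraries, the sums have no SD and were not tested.

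**Figure D3:**
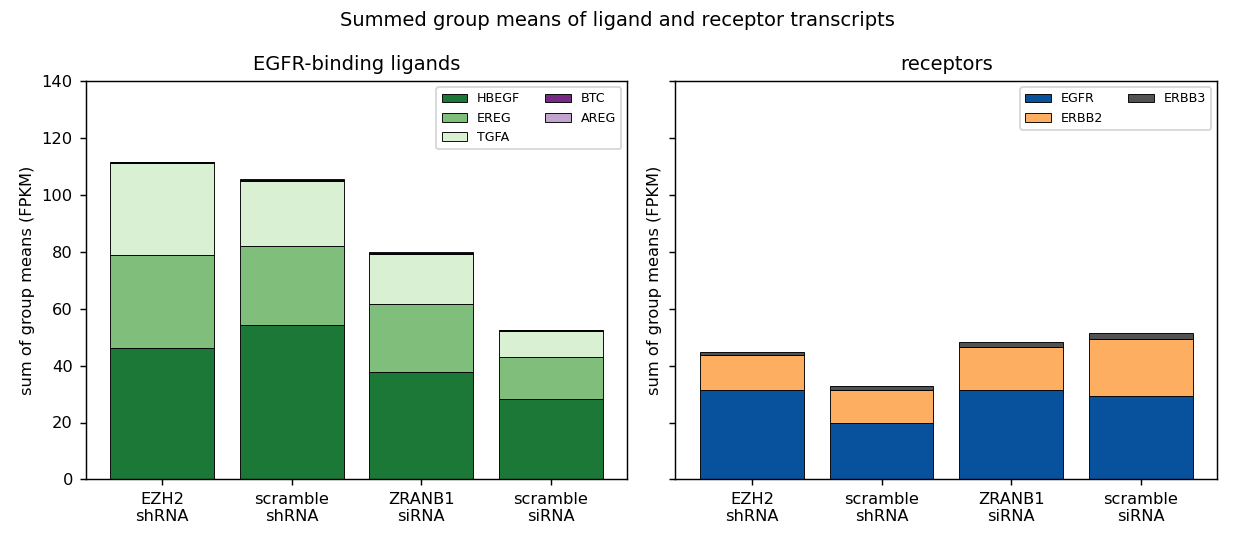
Group means in FPKM stacked for the EGFR-binding ligands (left) and the receptors (right), with the groups along the horizontal axis and both vertical axes starting at 0; no error can be given for the sums. The ligand stack is 111.7 FPKM with EZH2 shRNA and 52.7 FPKM with scramble siRNA, and the receptor stack is lowest, 33.0 FPKM, with scramble shRNA.

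Promoter sequences from RefSeq (GRCh38.p14) were read for 7 of the 9 genes, as the 250 bases just before the annotated start. Those of the 3 abundant EGFR ligands are shown because these genes were higher together in the libraries labelled ZRANB1 siRNA. That of EGFR is shown because the effect on it differed between EZH2 shRNA and ZRANB1 siRNA. Each is written 5′ to 3′ on the strand of the gene, and capitals mark motifs found on either strand.
TGFA, chr2:70553827-70554076, minus strand: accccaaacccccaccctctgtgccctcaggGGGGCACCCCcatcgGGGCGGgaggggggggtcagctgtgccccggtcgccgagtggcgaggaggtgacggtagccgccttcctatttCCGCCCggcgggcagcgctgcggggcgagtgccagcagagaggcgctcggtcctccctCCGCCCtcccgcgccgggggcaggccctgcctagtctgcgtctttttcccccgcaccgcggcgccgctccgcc
EREG, chr4:74364895-74365144, plus strand: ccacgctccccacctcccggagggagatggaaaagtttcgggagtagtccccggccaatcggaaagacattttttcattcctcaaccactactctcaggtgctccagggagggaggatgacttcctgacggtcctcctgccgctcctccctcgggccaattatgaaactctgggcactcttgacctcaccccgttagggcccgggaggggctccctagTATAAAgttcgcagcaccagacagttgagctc
HBEGF, chr5:140346604-140346853, minus strand: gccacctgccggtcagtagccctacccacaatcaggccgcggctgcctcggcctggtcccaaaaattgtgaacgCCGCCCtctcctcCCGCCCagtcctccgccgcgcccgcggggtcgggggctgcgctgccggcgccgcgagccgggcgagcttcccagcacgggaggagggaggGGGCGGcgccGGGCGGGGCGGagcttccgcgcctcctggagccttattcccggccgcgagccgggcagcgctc
EGFR, chr7:55018767-55019016, plus strand: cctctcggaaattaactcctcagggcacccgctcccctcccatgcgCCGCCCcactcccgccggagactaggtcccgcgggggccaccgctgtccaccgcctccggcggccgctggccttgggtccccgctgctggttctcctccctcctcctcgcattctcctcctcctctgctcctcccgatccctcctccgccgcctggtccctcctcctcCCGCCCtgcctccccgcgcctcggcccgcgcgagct
The motifs searched on both strands were the AP-1 site with the letters TGANTCA, the cyclic AMP response element CRE with the letters TGACGTCA and the NF-kB site. Also searched were the box that positions transcription in some promoters, with the letters TATAAA and called the TATA letters here, and the GC box bound by SP factors, with the letters GGGCGG. With positions counted back from -1, the base before the start, EREG held TATA letters at -32 to -27 and no GC box. TGFA held NF-kB letters at -219 to -210 and GC boxes at -204 to -199, -131 to -126 and -73 to -68. HBEGF held 5 GC boxes, at -176 to -171, -163 to -158, -73 to -68, -63 to -58 and -58 to -53, of which the last pair share a base. EGFR held GC boxes at -204 to -199 and -36 to -31. Over all 35116 promoters of this length, 42.6% held a GC box, 10.7% the TATA letters, 9.96% the NF-kB letters, 6.57% the AP-1 letters and 1.65% the CRE letters. The GC content was 75.6% for TGFA, 58% for EREG, 76.4% for HBEGF and 73.6% for EGFR, against a median of 58% over all promoters. No motif searched was found in all 3 ligand promoters. These are matches of letters only.

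The other genes of the family were low. EGF, the founding ligand, averaged 0.712 FPKM with EZH2 shRNA, 0.954 FPKM with scramble shRNA, 0.526 FPKM in the libraries labelled ZRANB1 siRNA and 0.456 FPKM with scramble siRNA. ERBB4, the remaining receptor, averaged at most 0.0207 FPKM in any group. None of EGF, EPGN, NRG2, NRG3, NRG4 and ERBB4 reached a mean of 1 FPKM, so 0 of 6 were tested in the main fit. With no filter on low values, their lowest adjusted p by limma was 0.189 for EZH2 shRNA and 0.411 for ZRANB1 siRNA. Between the controls, EGF (-0.42, adjusted p = 0.00737, limma), NRG2 (-0.28, adjusted p = 0.0234) and EPGN (0.11, adjusted p = 0.0263) passed in that fit. NRG3, NRG4 and ERBB4 did not. The levels were near 0: NRG2 averaged 0.061 FPKM with scramble siRNA and 0.287 FPKM with scramble shRNA, and EPGN 0.140 and 0.0535 FPKM. In the main fit, 50.6% of all tested genes were called between the controls.

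The genes that release ligands and those that hold the receptors back were set beside the members, as lists of genes. Of the ligand shedding genes, which hold the ADAM proteases that cut ligands and the iRhom proteins that guide them, 7 of 8 were tested. With EZH2 shRNA 0 were called by limma, against 6.41% of all tested genes. An unadjusted p below 0.05 was reached by 0 of the 7, beside 2558 of all 11929 tested genes. In the libraries labelled ZRANB1 siRNA 2 of 7 were higher, and 10.1% of all tested genes were. They were RHBDF2 (iRhom2) at 16.4 ± 2.15 FPKM, against 10.1 ± 0.841 FPKM with scramble siRNA, and RHBDF1 (iRhom1) at 13.7 ± 2.02 FPKM, against 8.54 ± 1.18 FPKM (adjusted p = 0.00202 and 0.0301, limma). The median log2 difference of the list was -0.0023 with EZH2 shRNA and 0.21 with ZRANB1 siRNA.

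Of 13 genes listed as inhibitors of the receptors, 12 were tested. With EZH2 shRNA UBASH3B, a phosphatase that can also slow the breakdown of activated EGFR, rose to 23.7 ± 3.96 FPKM, against 14.8 ± 1.53 FPKM with scramble shRNA (adjusted p = 0.0106, limma), and PTPN1, a phosphatase of receptor tyrosine kinases, fell to 40.9 ± 3.63 FPKM, against 49.1 ± 1.02 FPKM (adjusted p = 0.0440). These were the 1 higher and 1 lower call there, 16.7% of the list against 6.41% of all tested genes. In the libraries labelled ZRANB1 siRNA 3 were higher and 0 lower by limma, 25% of the list against 16.6%. An unadjusted p below 0.05 was reached by 4 of the 12, beside 3516 of all 11929 tested genes. LRIG1, which brings ERBB receptors to degradation, averaged 10.1 ± 0.675 FPKM, against 4.97 ± 0.334 FPKM with scramble siRNA (adjusted p = 7.17e-06, limma). ERRFI1 (MIG6), an inhibitor of the EGFR kinase, averaged 131.9 ± 10.9 FPKM, against 85.5 ± 6.26 FPKM (adjusted p = 0.00373). The third was CBL, a ubiquitin ligase of EGFR, with a log2 difference of 0.33 (adjusted p = 0.0296). The medians of the list were 0.069 with EZH2 shRNA and 0.14 with ZRANB1 siRNA.

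Downstream of the receptors, 16 of 17 genes of the adaptors and the RAS-ERK cascade were tested; NRAS had no row of its own. PTPN11 (SHP2), a phosphatase that passes receptor signals to RAS, averaged 65.8 ± 5.08 FPKM with EZH2 shRNA and 49.0 ± 4.01 FPKM with scramble shRNA (adjusted p = 0.0197, limma), the 1 call among the 16, a share of 6.25% beside 6.41% of all tested genes. It averaged 73.0 ± 5.48 FPKM in the libraries labelled ZRANB1 siRNA and 99.5 ± 7.44 FPKM with scramble siRNA (adjusted p = 0.00602), the 1 lower call in that comparison. PTPN11 has processed pseudogenes, so its level is uncertain. The kinases ARAF (0.53, adjusted p = 0.00182) and MAP2K1 (0.28, adjusted p = 0.0143) were higher on the log2 scale in the libraries labelled ZRANB1 siRNA. The 3 calls there were 18.8% of the list, near the 16.6% of all tested genes. Of the 9 PI3K-AKT genes, PIK3CA, the catalytic subunit p110-alpha, was the 1 called with EZH2 shRNA (0.44, adjusted p = 0.0463, limma), 11.1% of the list beside 6.41%. With ZRANB1 siRNA 0 of the 9 were called by limma, and 2 had an unadjusted p below 0.05, beside 3516 of all 11929 tested genes. The medians of the cascade list were 0.040 with EZH2 shRNA and -0.051 with ZRANB1 siRNA, and those of the PI3K-AKT list were 0.24 and 0.089.

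Of the 16 genes known as ERK output and feedback, 2 were higher and 3 lower with EZH2 shRNA, and again 2 and 3 in the libraries labelled ZRANB1 siRNA. These were 31.3% of the list each time, beside 6.41% of all tested genes with EZH2 shRNA and 16.6% with ZRANB1 siRNA. DUSP5, a nuclear ERK phosphatase, averaged 69.9 ± 7.13 FPKM with EZH2 shRNA and 55.4 ± 0.634 FPKM with scramble shRNA (adjusted p = 0.0357, limma), and DUSP4 averaged 118.6 ± 7.25 and 101.1 ± 2.36 FPKM (adjusted p = 0.0453). The early response factors FOS (-0.64, adjusted p = 0.00789) and EGR1 (-0.61, adjusted p = 0.00222) were lower on the log2 scale, as was FOSL1 (-0.36, adjusted p = 0.0440). IER3, an early response gene, averaged 340.1 ± 25.1 FPKM in the libraries labelled ZRANB1 siRNA, against 105 ± 3.84 FPKM with scramble siRNA (log2 difference 1.68, adjusted p = 3.02e-07, limma). FOSL1, an AP-1 subunit, was higher there (0.36, adjusted p = 0.0208), while SPRY1, a feedback inhibitor of the RAS pathway (-0.67, adjusted p = 3.21e-04), DUSP5 (-0.43, adjusted p = 0.00360) and EGR1 (-0.28, adjusted p = 0.0473) were lower. The medians of this list were 0.10 with EZH2 shRNA and -1.2e-04 with ZRANB1 siRNA. DUSP5 and FOSL1 were called in opposite directions with EZH2 shRNA and ZRANB1 siRNA. The difference of effects was -0.76 for DUSP5 (adjusted p = 0.00133, limma) and 0.72 for FOSL1 (adjusted p = 0.00469).

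**Figure D4:**
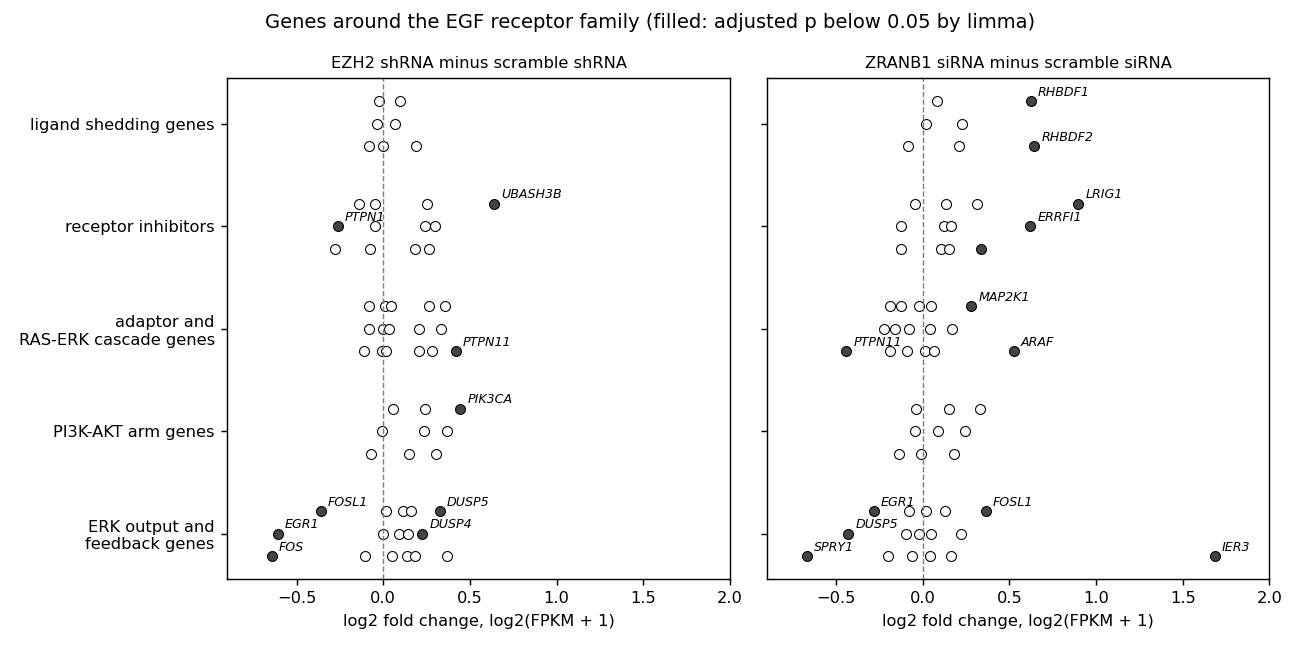
Log2 differences (horizontal axis, log2(FPKM + 1) scale) of the tested genes in 5 lists around the EGF receptor family, in panels for EZH2 shRNA minus scramble shRNA and ZRANB1 siRNA minus scramble siRNA; each point is a gene and filled points had an adjusted p below 0.05 by limma. With EZH2 shRNA, named genes lie on both sides of 0 among the receptor inhibitors and the ERK output and feedback genes. With ZRANB1 siRNA they do so in the RAS-ERK cascade and the ERK output and feedback lists, with IER3 at 1.68 farthest out.

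The genes with the most similar pattern to each member were taken by distance over the 4 group means of log2(FPKM + 1), each gene centred on its own mean. For HBEGF they were DTX2P1-UPK3BP1-PMS2P11 (distance 0.013 log2 units) and LHFP (0.027). For EREG they were DNAJC3 (0.022) and DSE (0.024), and for TGFA they were PAG1 (0.019) and PDE1C (0.055). NRG1 was nearest to ARL2-SNX15 (0.042) and ZCCHC9 (0.051), EGFR to RGS4 (0.045) and CNTNAP1 (0.068). ERBB2 lay nearest to GRAMD3 (0.016) and CEP131 (0.027), and ERBB3 to UCKL1 (0.0075) and PHYHD1 (0.012). With 4 points per gene and 11929 tested genes, near matches are easily had, and the distances are descriptions. ERBB3, PDE1C, RGS4, CNTNAP1 and DTX2P1-UPK3BP1-PMS2P11 were low in FPKM, where adding 1 narrows differences. A small distance then need not mean a like fold change. PDE1C averaged 2.40 FPKM with EZH2 shRNA and 0.0789 FPKM with scramble siRNA, where TGFA averaged 32.3 and 9.14 FPKM.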

How the data were processed

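RNA of 12 LM2 libraries in 4 groups of 3 was measured by RNA sequencing. Expression was deposited as FPKM in a single table of 26006 rows. The submitters' processing notes name the build hg19 and the tools TopHat2 2.1.1, SAMtools, and Cufflinks and Cuffdiff, both 2.2.1; their options, the annotation and the strand setting are not given there. FPKM is relative, and a very abundant transcript takes fragments from all others. The depth is unknown, and 3 values per group limit the precision.

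Within a group, the values of all rows with 3 different values (15454 to 15850 rows per group) stood in text order. That order affects no mean, SD or single-gene test; pairing and depth per library could not be had.

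Of rows with the same symbol (440 symbols), that with the highest mean was kept. The 11929 genes whose mean reached 1 FPKM were tested as log2(FPKM + 1), which understates changes of low genes, with limma 3.58.1 in R 4.3.3: all 4 groups were fitted together with a mean each (8 residual degrees of freedom) and a trended variance prior, with Benjamini-Hochberg adjustment over all tested genes and calls at an adjusted p below 0.05. Exact permutation tests used scipy 1.17.1, and figures matplotlib 3.10.9. The fit was tested on simulated data.

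The members and the gene lists were chosen with earlier results of these data known. Named were all members, the targets, the 2 nearest genes per member, and markers near 0. Up to 2 called genes per list and direction were named by size of change, for EZH2 shRNA and for ZRANB1 siRNA. CBL, FOSL1 and EGR1 were also named to complete counts, and EGFR-AS1 and the markers called in a comparison after their values were seen. The GC box was added to the motifs after the tables had been seen. The alternatives changed the pseudocount to 0.1, dropped the filter or raised it to 5 FPKM, fitted the compared groups alone, dropped the variance trend, applied 1 scaling factor per group, summed rows of a symbol, left out each value of a gene in turn, drawn in random order, or asked for a log2 change of at least 1. Protein sequences were not used here.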

Additional observations from a re-analysis of the deposited data

Results flagged for a closer look

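HBEGF was picked out because the effect of ZRANB1 siRNA differed from that of EZH2 shRNA, by 0.64 on the log2 scale (95% interval 0.46 to 0.81, adjusted p = 3.68e-04, limma). Its mean was at 133.8% of scramble siRNA in the libraries labelled ZRANB1 siRNA and at 85.0% of scramble shRNA with EZH2 shRNA. All 3 values lay outside the control range each time, beside 36.4% of all tested genes without overlap for ZRANB1 siRNA and 22.1% for EZH2 shRNA. The HBEGF call with EZH2 shRNA held in 11 of 19 alternatives without the size requirement (adjusted p from 0.0155 to 0.133, limma). EGFR was picked out for the same difference in the other direction, -0.55 (95% interval -0.79 to -0.31, adjusted p = 0.00766, limma): it was at 106.9% of scramble siRNA in the libraries labelled ZRANB1 siRNA and at 159.3% of scramble shRNA with EZH2 shRNA. The controls of the effects differed too, HBEGF by -0.93 and EGFR by 0.55 (scramble siRNA minus scramble shRNA), so each effect started from another level. What lies behind these differences was not tested.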

How the results depend on the processing

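Of 521 member log2 differences recomputed under alternatives other than a size requirement, 491 kept their direction and side of the threshold, 26 kept their direction but lost the call, 2 gained a call and 2 changed sign. Leaving out 1 value per gene in turn, the count of members called was 1 to 4 for EZH2 shRNA, 2 to 5 for ZRANB1 siRNA, 7 to 7 between the controls and 2 to 2 for the difference of effects; all genes called ranged from 410 to 663 (765 with all values, and 420, 410 and 453 without a scramble shRNA value), 1395 to 2106 (1985) and 5287 to 6205 (6036). The sign changes were small: ERBB2 with EZH2 shRNA ranged from -0.043 to 0.15 and the ERBB3 difference of effects from -0.14 to 0.019. With only the 6 values of the compared groups, 1 member (EGFR) and 185 genes were called for EZH2 shRNA. That fit took the spread from those 6 values alone, and the difference of effects cannot be had that way. The filter at 5 FPKM left 503 genes called for EZH2 shRNA, out of a smaller number tested. Why these counts were lower was not tested. A log2 change of at least 1 left 0 members for EZH2 shRNA, ZRANB1 siRNA and the difference of effects, and 1 (TGFA) between the controls; over all genes it left 36, 223 and 1012. The calls of TGFA and NRG1 with EZH2 shRNA held in 16 and 15 of 19 alternatives (adjusted p 0.0114 to 0.0753 and 0.00928 to 0.127), and ERBB2 with ZRANB1 siRNA was called in 2 of 19 (0.0440 to 0.188); the cause was not tested. The AREG values did not change with summed rows, the second row being 0, and no separate row of the second copy was used. No paired analysis was possible because a column held values of different libraries in different genes; the planned replicate block was not run. Low levels (AREG, BTC, ERBB3) limit what these data can show, and depth is unknown.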

Other observations

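Between the controls, the 5 lists around the receptors had 37.5% to 71.4% of their tested genes called, beside 50.6% of all tested genes. Of 7 tested ligand shedding genes, 0 were higher and 5 lower in the scramble siRNA group than in the scramble shRNA group: RHBDF2 (-0.99 on the log2 scale), RHBDF1 (-0.88), FRMD8 (-0.68), and the ADAM10 (-0.35) and ADAM17 (-0.23) proteases that cut EGF family ligands. Of 12 tested receptor inhibitors, 3 were higher and 4 lower, among them UBASH3B (0.78) and LRIG1 (-1.35). In the RAS-ERK list 4 of 16 were higher and 2 lower, with PTPN11 at 1.01 and ARAF at -0.97, and in the PI3K-AKT list 2 of 9 were higher and 2 lower. Of 16 ERK output and feedback genes, 2 were higher (SPRY1 1.26, DUSP5 0.76) and 5 lower, including IER3 (-2.50) and FOSL1 (-1.16). All of these were called at an adjusted p below 0.05 by limma, and the genes named here were chosen after their values were seen. The scramble siRNA libraries also served as the control for ZRANB1 siRNA.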
